A study of Rattus norvegicus with 6 samples.

Results

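The clones assigned to Stat5b and Fxyd2, genes that the study lists as raised by thyroid hormone (T3) in mouse liver, are 2 of 6240 clones on the array. They were selected on their wild type T3 values. The study prints a ratio of T3-treated to untreated for each gene. The assigned clone was the one with a ratio of the mean log2 value on the wild type T3 arrays within 0.005 of it. Exactly 1 clone met each ratio, RNABP74 for Fxyd2 and RGIAK24 for Stat5b. No source used here names the gene of a clone, so both identities rest on this match.

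Liver RNA was hybridised to 6 two-colour arrays carrying rat cDNA clones, 2 for each of 3 comparisons. Hypothyroid wild type mice were compared 2 hours after an injection of 5 μg T3 with 5 μg T4 and without treatment. The same comparison was made in hypothyroid mice that lack thyroid hormone receptor β (TRβ-/-), and untreated hypothyroid TRβ-/- mice were compared with untreated hypothyroid wild type mice, here called the genotype comparison. The animals behind the wild type comparison were males, 3 months old, of a hybrid laboratory strain, while no source used here gives the strain, sex and age of the TRβ-/- mice or the dose they received. All groups, controls included, were hypothyroid. RNA was pooled over 5 mice per group by the labels of the wild type T3 and genotype arrays, while the labelling protocol gives 6, and for the TRβ-/- T3 arrays no number is stated. The wild type T3 arrays hybridised the same pair of pools, so their SD measures hybridisation and not animals, and no test between animals can be made. The samples are labelled as rat although the RNA described is from mice, so rat clones were read with mouse RNA. No injection control was analysed here.

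Thyroid hormone acts through nuclear receptors, of which TRβ is the main form in liver. They bind DNA and change transcription of their targets within hours. STAT5B, the product of Stat5b, is a transcription factor that is phosphorylated by JAK2 when growth hormone binds its receptor, and it drives Igf1 and many genes that differ between male and female liver. Its close paralogue STAT5A is encoded by the neighbouring gene, and in the rat RefSeq annotation Stat5b lies between Ghdc and Stat5a on chromosome 10. FXYD2 is the γ subunit of the Na,K-ATPase, a small membrane protein that changes the affinity of the sodium pump for its ions and is known mainly from the kidney tubule. Fxyd2 lies beside Fxyd6, another gene of its family, on rat chromosome 8. Whether the clone read as Stat5b also bound Stat5a RNA was not tested.

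Since the names rest on ratios, the neighbourhood of each match was described first. The Fxyd2 clone had a ratio of 4.36, which differed from the listed one by 0.000643. The nearest other clones were RGIAK24 below it, 0.074 lower, and RGIAX93 above it at 4.41. The Stat5b clone had a ratio of 4.29 and differed by 0.0045, so it lay just inside the limit. Its neighbours were RGIAX56, at 4.27, and the Fxyd2 clone above it. Clones were sparse here. Between ratios of 4 and 5 there were 12, and the ranges within 0.005 of a clone covered 12% of that span.

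The order of the clone names was also described, a choice made after the values were seen. Of the genes listed as raised by T3, 14 carry a GenBank accession that begins with the same 3 characters as that of Fxyd2. By the same rule, 10 of them met exactly 1 clone and 4 met more than 1. Sorted by accession, the 10 clones were RNABP74 for Fxyd2, then RNABP85, RNABQ26, RNABP94, RNABQ54, RNABS36, RNABS49, RNABS53, RNABT34 and RNABU11. 9 of the 10 names stood in the order of the accessions once either RNABQ26 or RNABP94, the clone matched to the isocitrate dehydrogenase gene Idh1, was left out. The Fxyd2 clone was the first of this series, since cathepsin E, with an earlier accession, met more than 1 clone. Any name that sorts before RNABP85 would have stood in order there. The order therefore says little about the Fxyd2 match. For Stat5b 3 rows share the first characters of the accession. Their clones, RGIAK24, RGIBB43 and RNABB47, come from different groups of names and are too few to describe an order.

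On the wild type arrays the Fxyd2 clone had a log2 ratio of 2.37 on array 1 and 1.88 on array 2. These are ratios of T3-treated over untreated of 5.18 and 3.67. The mean was 2.12 (SD 0.35, 2 arrays), and 17 of the 3247 clones with values on both arrays lay higher. The arrays thus differed by 0.50 on the log2 scale, and 19.2% of clones differed by more. Both values were beyond 2-fold.

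The Stat5b clone had a log2 ratio of 1.22 on array 1 and 2.98 on array 2. In linear terms array 1 gave 2.33 and array 2 gave 7.87. The mean was 2.10 (SD 1.24, 2 arrays), next after the Fxyd2 clone in the order of all clones, with 18 clones higher. The means of both clones differed by far less than the SD of the Stat5b clone, so their order cannot be read. The arrays agreed on the sign for Stat5b but not on the size. The distance of 1.76 between them was a 3.38-fold difference, against a median of 0.24 on the log2 scale over all clones, and only 31 of the 3247 clones had a larger one.

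At least 2-fold higher on both wild type arrays were 80 clones, or 2.46% of those with both values, and both members were among them. This follows from how they were chosen and is no finding. Among the 80 clones no distance between the arrays was larger than that of the Stat5b clone, and 12 were larger than that of the Fxyd2 clone. Clones high on a single array cannot enter the 80, so this choice itself limits the distance. Without that rule, 24 clones reached a wild type ratio of at least 4 by their mean log2 value. Of these, 3 had a larger distance than the Stat5b clone and 8 a larger one than the Fxyd2 clone. On array 1 alone 4.03% of clones were at least 2-fold higher, and on array 2 alone 7.63% were. Array 2 carried values for 5686 clones and array 1 for 3251. Without array 1 the Stat5b value is 2.98 and without array 2 it is 1.22.

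**Figure D1:**
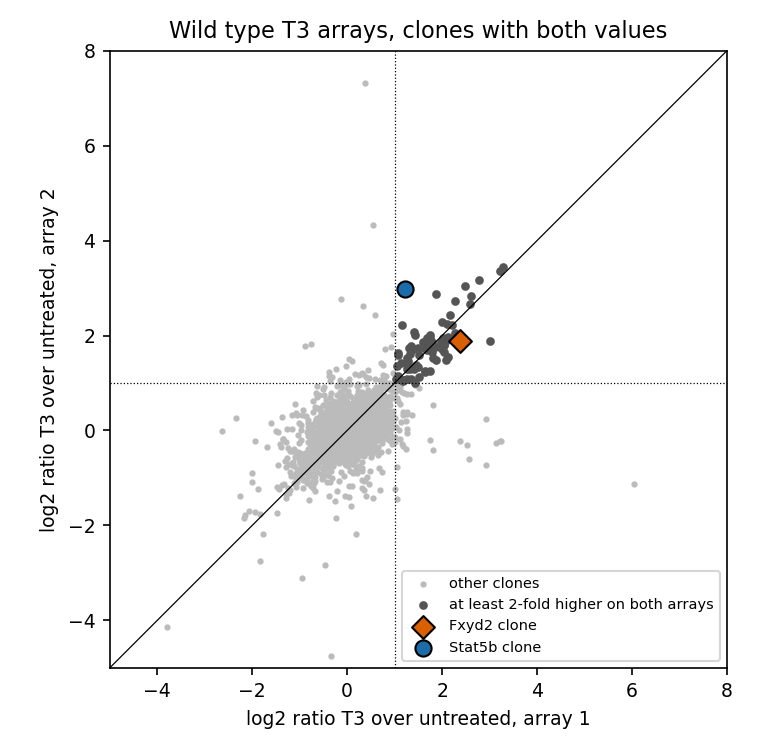
Log2 ratios of T3-treated over untreated wild type liver on array 1 (horizontal axis) and array 2 (vertical axis) for the 3247 clones with both values; dotted lines mark 2-fold and the solid line equal values. The Fxyd2 clone lies near the line of equal values at 2.37 and 1.88, and the Stat5b clone lies far above it at 1.22 and 2.98.

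The choice of the clones did not use the remaining 4 arrays, though the genotype comparison also used untreated hypothyroid wild type mice, and little was measured on them for either clone. The Fxyd2 clone had no value on any of the 4, so neither the TRβ-/- response to T3 nor the genotype difference can be given for it. Of the 3247 clones 89, or 2.74%, had no value on the 4 other arrays. Of these 89 clones 6, or 6.74%, were among the 80 raised clones, against 2.46% of all 3247. The authors left out spots that were less than 2 times above background. The deposited values hold no intensities, so the reason for a missing value cannot be seen. No value of these arrays therefore says whether the rise of the Fxyd2 clone was present in TRβ-/- mice.

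The Stat5b clone had a value on 2 of the 4 other arrays, array 1 of the TRβ-/- T3 comparison and array 2 of the genotype comparison. 41 clones had this same set of values, and 4 of these 41 were among the 80 raised clones, against 2.46% of all 3247 clones. In TRβ-/- mice its log2 ratio was 0.43, a ratio of 1.35 as deposited. There is no second array and so no SD for the clone. Over the clones with both TRβ-/- values the median SD between arrays was 0.16. On that array 15.5% of 2270 clones were higher, and 29.3% were at least as far from 0 in either direction. The value was under 2-fold, as were those of most clones, since 4.01% of clones were at least 2-fold higher on this array and 2.64% at least 2-fold lower.

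The direction of the TRβ-/- T3 arrays is not settled. Their channel labels name opposite orders of treated and untreated RNA, yet their deposited values correlate at 0.703 over 1635 clones. For the wild type T3 arrays this correlation was 0.551 over 3247 clones, and for the genotype arrays it was 0.358 over 3095 clones. Read with the sign turned, the log2 ratio of the Stat5b clone is -0.43. In either direction it lay nearer to 0 than both wild type values. As deposited it was lower than the wild type value by 0.79 on array 1 and by 2.55 on array 2. From the wild type mean it differed by 1.67, or by 2.53 if the sign of the TRβ-/- array is turned. With 1 value in TRβ-/- mice this difference has no test, and the wild type side of it was used to choose the clone.

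The Stat5b clone was then placed among the raised clones on the same arrays. Of the 80 clones, 61 had a value on array 1 of the TRβ-/- T3 comparison, as deposited from -1.32 to 5.72 with a median of 1.40. The Stat5b clone then lay in the lower part of this range, with 12 clones below it and 48 above, and with the sign turned 48 lay below it and 12 above. At least 2-fold higher were 37 of the 61 as deposited and 2 with the sign turned, and the Stat5b clone was not among them in either reading. As deposited the wild type mean exceeded the TRβ-/- value by more than for Stat5b in 8 of the 61 clones, and the median difference was 0.28. With the sign turned it did so in 40 clones, and the median difference was 3.16, above the 2.53 of Stat5b. The place of the Stat5b clone among the raised clones thus depends on the direction of this array. All these clones were chosen by their wild type values, and none of these counts was tested. The counts are of clones and not of genes. Some raised clones were closely alike, such as RGIAJ05, RGIAJ32 and RGIAJ44, with 3.31, 3.04 and 3.01 on this array as deposited. On array 2 of the genotype comparison they had 0.46, 0.50 and 0.49. Whether such clones read the same gene was not tested.

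In untreated mice the Stat5b clone had a log2 ratio between genotypes of 0.06 on array 2, a ratio of 1.04 as deposited. The clone had no value on array 1. Its distance from 0 was smaller than the median SD of 0.17 between the arrays of this comparison, and 81.2% of 3622 clones were at least as far from 0. Clones at least 2-fold up on this array made 1.05% and those at least 2-fold down 1.19%. Which genotype is the numerator is not settled, because the title of array 2 names the opposite order to that of array 1 while the channels do not. For a value this near to 0 the sign makes little difference, and it is -0.06 when turned. Of the 80 raised clones 73 had a value on this array, from -2.91 to 2.02 with a median of -0.17, so the Stat5b clone lay near the middle, with 41 below and 31 above.

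**Figure D2:**
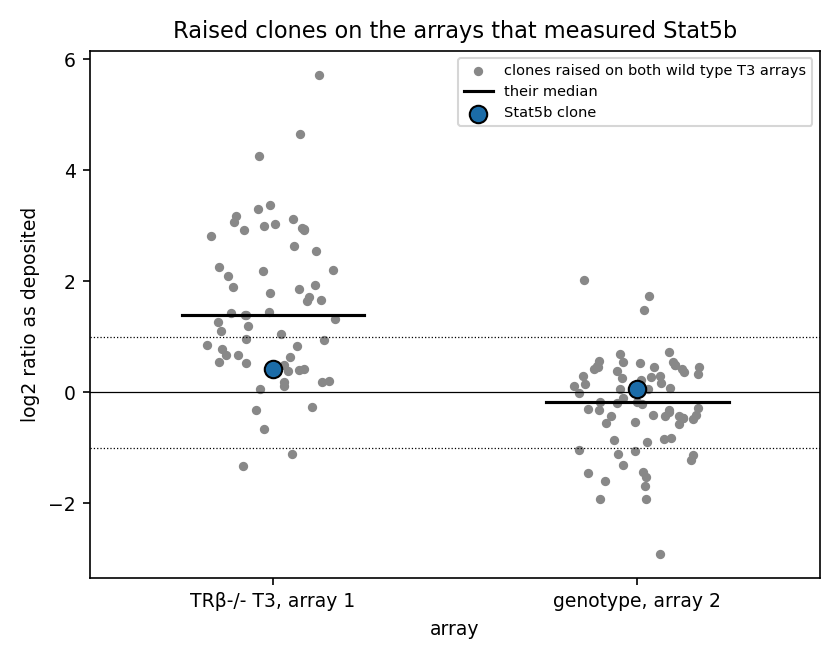
Log2 ratios as deposited of the clones at least 2-fold higher on both wild type T3 arrays, on the 2 other arrays that measured the Stat5b clone (61 and 73 points, spread sideways for legibility). The blue point is the Stat5b clone, at 0.43 in TRβ-/- mice under a median of 1.40, and at 0.06 between genotypes, close to the median of -0.17.

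Other genes of these pathways could be set beside the members only where the same match gave a single clone. The match needs a T3 ratio printed by the study, whose list holds only genes raised by T3. Of 17 listed genes of growth hormone and STAT5 signalling and of 12 listed genes of the Na,K-ATPase and FXYD family, 0 could be linked to a clone. None of them is in the study's list, so this was fixed in advance and says nothing about these genes. Of 9 listed genes of the T3 response 2 were linked, and both had values on all 6 arrays. Me1 encodes malic enzyme, a source of NADPH for making fatty acids, and its clone RNABS36 had wild type log2 ratios of 2.78 and 3.17. In TRβ-/- mice the Me1 clone had 1.78 and 2.51 as deposited. In the genotype comparison it had -1.54 and -1.91. All 6 Me1 values were thus beyond 2-fold, whereas of the 4 arrays that measured the Stat5b clone it was beyond 2-fold on the wild type T3 arrays only.

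Thrsp encodes Spot 14, a nuclear regulator of lipogenesis. Its clone RNAC07 had wild type log2 ratios of 2.28 and 2.73. In TRβ-/- mice the same clone had -1.32 and -1.45 as deposited, so as deposited its sign was opposite to that in wild type mice and to that of Me1. In the genotype comparison it had -1.42 and -1.59. The clones of these well-known T3 targets lay beyond 2-fold between untreated genotypes, while the single Stat5b value was 0.06. Among the raised clones, 73 had a value on array 2 of that comparison. As deposited, 3 of them were at least 2-fold up and 14 at least 2-fold down, against 1.05% and 1.19% of all clones. Most raised clones were thus under 2-fold there, like Stat5b. These differences between clones were not tested, and the names of Me1 and Thrsp have the same basis as those of the members.

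**Figure D3:**
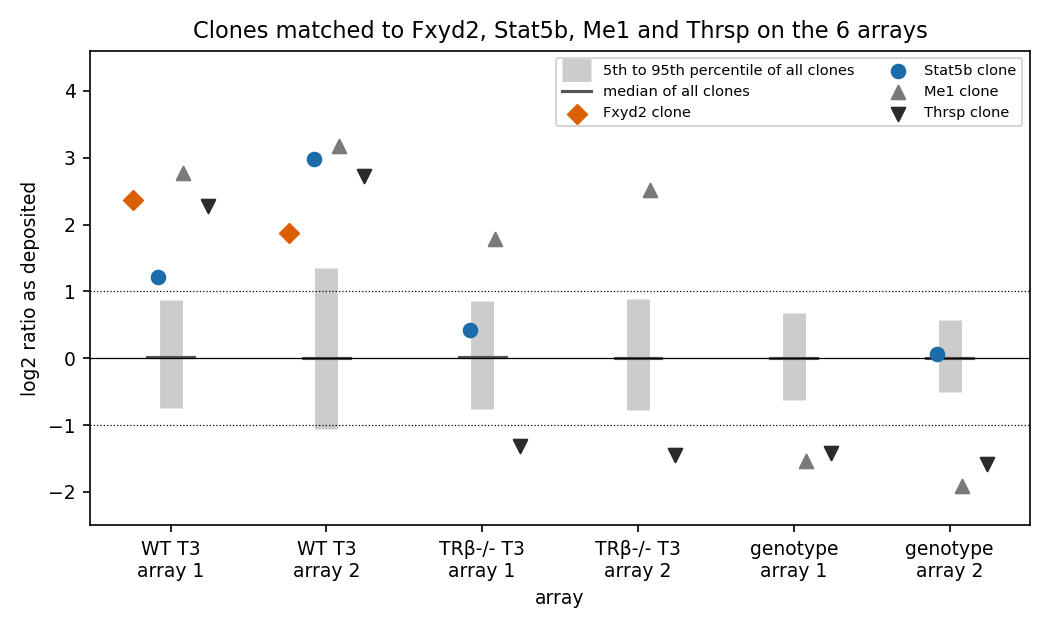
Log2 ratios as deposited on the 6 arrays for the clones matched to Fxyd2, Stat5b, Me1 and Thrsp; grey bars span the 5th to 95th percentile of all clones, short lines mark their medians and dotted lines 2-fold. A clone without a symbol has no value there: Fxyd2 was measured on the wild type T3 arrays, Stat5b on 4 arrays, at 1.22, 2.98, 0.43 and 0.06, and Me1 and Thrsp on all 6.

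The distance between the wild type arrays went with how often a clone was measured elsewhere. Clones with values on all 4 other arrays, 1619 of 3247, had a median distance of 0.19 on the log2 scale. With values on 2 of the 4, as for the Stat5b clone, the median was 0.33 over 725 clones, and 10 of these clones had a larger distance than Stat5b. With no other value, as for the Fxyd2 clone, it was 0.44 over 89 clones. The Fxyd2 clone with 0.50 lay close to that median, while the Stat5b clone with 1.76 lay beyond the 90th percentile of 0.88 in its class. The part of spot intensity in this was not tested, since no intensities were in the values used here.

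**Figure D4:**
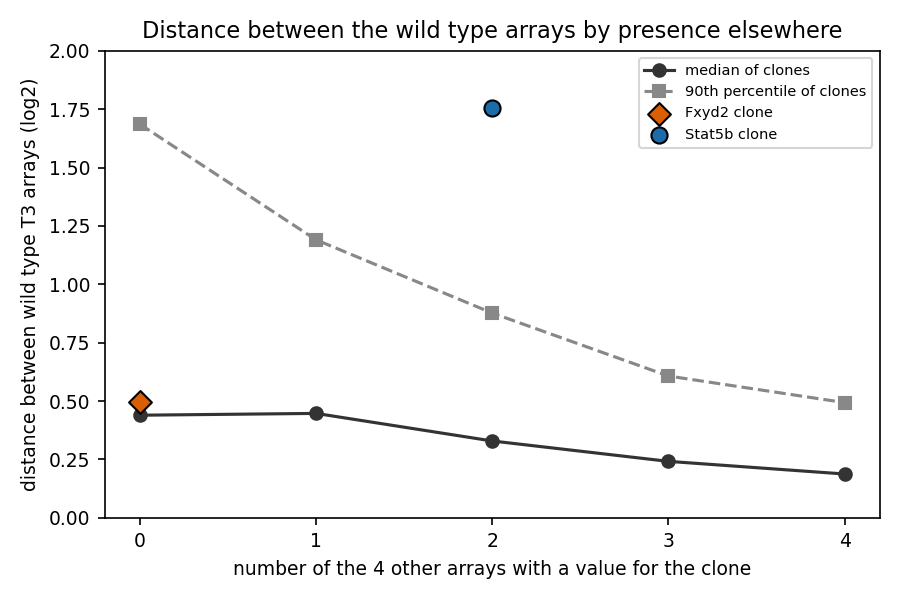
Distance between the log2 ratios of the wild type T3 arrays (vertical axis) by the number of the 4 other arrays on which a clone had a value (horizontal axis), as the median and 90th percentile of clones. The Fxyd2 clone at 0.50 is close to the median of 0.44 for clones with no other value, and the Stat5b clone at 1.76 is above the 90th percentile of 0.88 for clones with 2.

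The clones most like each member were named by their distance over the arrays that measured it. For Fxyd2 these were only the wild type T3 arrays used to choose it, over 3246 other clones. RGIAX56 was nearest, at a distance of 0.045, followed by RGIBA71, RNABL12, RNABJ25 and RGIBB41, the last at 0.27. In TRβ-/- mice RGIAX56 had 2.82 and 1.96 as deposited, and RGIBB41 had 3.08 and 2.93. RGIBA71 had 0.20 on array 1 only, and RNABJ25 had 0.18 and 0.19. RNABL12 had no value outside the wild type T3 arrays. Between genotypes RGIBA71 had -1.68 on array 2 and RNABJ25 had -1.31 and -1.10, while RGIAX56 had 1.17 and 0.69 and RGIBB41 had 0.39 and 0.46. The 4 measured clones thus held a pair with TRβ-/- values close to 0 and a pair with values above their wild type values of the same array number, as deposited.

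For Stat5b 4 arrays and 2221 other clones could be used. The nearest clone was RGIAJ01, at a distance of 0.78, with 1.87 and 2.88 in wild type mice, 0.78 in TRβ-/- mice on array 1 and 0.28 between genotypes on array 2. RNABR38 followed at 0.98, with wild type values of 0.33 and 2.62. RGIAR91, RNABS49 and RNABJ26 were farther, up to 1.42. No clone was thus as near to Stat5b as the nearest ones to Fxyd2, though a distance over 4 arrays takes in more terms than one over 2. All 5 of these clones had wild type array 2 above array 1, as Stat5b did. The wild type arrays were part of the distance, so this likeness follows in part from how the clones were picked.

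The clone next in name to the Fxyd2 clone was among the highest of all, which was noticed after its values were seen. RNABP75 had wild type log2 ratios of 3.29 and 3.44, a ratio of 10.3, the second highest mean of the 3247 clones. It had 5.72 on array 1 of the TRβ-/- T3 comparison as deposited and 1.76 and 2.02 between genotypes. RNABP73, on the other side, had a single value, -1.13 on wild type array 2. No source used here gives where clones of neighbouring names lay on the slide, and a part of RNABP75 in the Fxyd2 values was not tested. The clones next to the Stat5b clone had wild type values on array 2 only, -0.52 for RGIAK23 and 0.48 for RGIAK25.

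The sequence just before the start of rat Stat5b is shown because thyroid hormone receptors and STAT5 act through DNA sites. It is the 250 bases upstream in RefSeq, at chr10:86275953-86276202 on the minus strand of GRCr8. Capitals would mark a site. Neither strand held AGGTCA, the core element of thyroid hormone receptors, TTCNNNGAA, a STAT5 site, or TCACNCCAC, a site of SREBP, a regulator of lipid synthesis. These stretches of letters occurred in 14.1%, 7.67% and 0.974% of the 33469 rat promoters of the same length.
Stat5b: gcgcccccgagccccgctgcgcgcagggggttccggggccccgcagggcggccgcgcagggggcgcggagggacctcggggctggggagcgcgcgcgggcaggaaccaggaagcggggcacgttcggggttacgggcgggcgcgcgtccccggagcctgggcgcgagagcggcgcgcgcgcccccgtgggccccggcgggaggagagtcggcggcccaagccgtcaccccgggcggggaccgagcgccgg
The stretch was 84.0% G or C, against a median of 51.2% over all promoters. No match says only that these letters are not in this window of the rat gene, and the arrays measured mouse RNA.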

How the data were processed

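Spot intensities were read by the authors in GenePix Pro. By their description, spots whose signal was not 2 times above background were left out. Local background was subtracted, and Lowess of the SMA package corrected each array. Wild type array 2 holds values for 5686 clones and the other arrays for 1690 to 3622. Its 5th to 95th percentile ran from -1.06 to 1.35, against -0.74 to 0.88 on wild type array 1. Whether the same filter was used on every array was not tested. No source used here gives versions. What was deposited is a log2 ratio for each clone and array. Intensities were not among the values, so signal over background was not examined, and 2 arrays per comparison limit the precision.

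Both clones and all gene lists were chosen with earlier results of these data known. Scale and direction of the wild type T3 arrays were taken from the match to the listed ratios (tolerance 0.005). A clone counted as raised with a log2 ratio of at least 1 on both arrays, the study's own threshold. Named were the members, their neighbours in ratio, the 5 clones nearest by Euclidean distance over the arrays measuring a member, and listed genes that could be linked. Clones named by the order or adjacency of names were chosen after their values were seen. The match was not run for the cell type markers of the plan. Haemoglobin genes are among these markers and also among the genes the study lists as raised by T3. Whether any clone named here reads haemoglobin RNA was thus not tested.

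Alternatives were other tolerances, linear means, turned signs, centring, scaling, single arrays, other fold cutoffs, and limma on 2 arrays with an adjusted p under 0.05, which measures hybridisation spread only. The rule and limma were run on simulated data. The changed clones there lay far beyond 2-fold relative to the simulated noise. Their recovery was thus nearly certain in advance and says little about weaker or noisier clones. The match was run on simulated data too, but the simulated noise cancelled in the mean of the 2 arrays. Its outcome was thus fixed in advance and says nothing about the match. Python 3.11.15, numpy 2.4.6, pandas 2.3.3, matplotlib 3.10.9, R 4.3.3 and limma 3.58.1 were used.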

Additional observations from a re-analysis of the deposited data

How the results depend on the processing

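The name of the Fxyd2 clone held at tolerances from 0.0025 to 0.02, with 1 clone each. For Stat5b there was 1 clone at 0.01 and 0.02 and 0 at 0.0025, a limit narrower than the rounding of a ratio with 2 decimals. With linear means 0 clones met either ratio, since the Stat5b clone then has 5.10 and the Fxyd2 clone 4.42, and with the sign turned 0 did. Centring and scaling kept the mean of the Fxyd2 clone between 2.11 and 2.14 and that of the Stat5b clone between 2.04 and 2.09. Single arrays gave 1.88 to 2.37 and 1.22 to 2.98. The TRβ-/- value of the Stat5b clone is -0.43 with the sign turned.

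Past 2-fold on both arrays were 80 clones up and 25 down for wild type T3, 46 of positive and 25 of negative sign for TRβ-/- T3, and 12 and 15 for the genotypes. In this order a 1.5-fold rule gave 146, 111, 76, 62, 52 and 34, a 3-fold rule 40, 8, 23, 8, 5 and 4. The mean in place of each array took the 25 lowered wild type clones to 44 and the 12 genotype clones to 28, and limma at its adjusted p threshold, with no fold cutoff, took the 25 to 49. Over all clones with a value on the array, single arrays gave 131 to 434 and 75 to 318 for wild type T3. For TRβ-/- T3 they gave 74 to 91 and 48 to 60. For the genotypes they gave 38 to 61 of positive sign and 43 of negative sign. Why these counts moved was not tested. Both members passed the wild type rule at 2-fold, and the Stat5b clone did not at 3-fold, its value on array 1 being 2.33.

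No paired analysis was possible because every value is a ratio within an array, and limma was fitted to the 2 arrays of each comparison alone, with no second group to pair. Values without the only array that measured the Stat5b clone, and all settings for the Fxyd2 clone outside the wild type T3 arrays, could not be given. Which spots were weak could not be examined.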

Other observations

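Of the 80 raised clones, the TRβ-/- T3 arrays measured 61 and 48, or 76.3% and 60%, against 68.6% and 51.6% of all 3247 clones. The genotype arrays measured 64 and 73, or 80% and 91.3%, against 90.6% and 95.8%. All 4 together measured 47, or 58.8%, against 49.9%. These shares were not tested. The Fxyd2 clone was measured on 0 and the Stat5b clone on 2 of these arrays. In the group of 96 clones that share the first 5 letters of the Fxyd2 clone's name, 55 had a value on wild type array 1 and 14 on TRβ-/- T3 array 2. In the group of the Stat5b clone these numbers were 49 and 33. Over all 6240 clones they were 3251 and 1690.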
